A study of Rattus norvegicus with 39 samples.

Results

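The iron and metal handling genes described here were Mt2A, Slc30a1, Fth1, Slc40a1, Tfrc, Hamp and Cp, 7 genes named by symbol. Their members on the array were the probe sets whose platform annotation gave one of these symbols alone, which left 6 genes and 11 probe sets out of 10411 genes and 12783 probe sets with a single symbol. Fth1, the heavy chain of the iron store ferritin, had no such probe set, so no value is given for it. Mt2A, Slc30a1 and Hamp had 1 probe set each, Tfrc 2, and Slc40a1 and Cp 3 each.

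The study measured rat liver after a dose of ANIT (1-naphthylisothiocyanate), a toxicant of the bile duct epithelium. All animals were Sprague Dawley rats, 8 weeks old, which received either ANIT (50 mg/kg, dissolved in corn oil) or the vehicle, 10 ml/kg of corn oil, and were sampled 2 h or 6 h later. Laser capture microdissection, in which chosen cells are cut out of a tissue section under the microscope, gave bile duct epithelium and hepatocytes separately, and the small amounts of RNA were amplified before hybridisation to Affymetrix rat arrays. The 8 groups were ANIT bile duct, vehicle bile duct, ANIT hepatocytes and vehicle hepatocytes at each time, with 5 arrays per group except 4 in vehicle bile duct at 6 h, 39 in all. The labels gave 5 treated and 5 control rats, with separate rats for each treatment and time. They did not tie bile duct and hepatocyte arrays to rats, so captures from both regions may share an animal. Values were the deposited normalised signals on a log2 scale, on which a step of 1 is a doubling, and levels of different probe sets were not set against each other. In captures of this kind, fewer cells of a type and less RNA per cell cannot be told apart.

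Iron enters most cells as transferrin bound to the transferrin receptor, encoded by Tfrc, and leaves them through ferroportin, encoded by Slc40a1. Hepatocytes secrete the peptide hepcidin (Hamp), which binds ferroportin and causes its breakdown, and ceruloplasmin (Cp), a copper-bearing ferroxidase of plasma that readies released iron for transferrin. In cells short of iron, iron regulatory proteins bind Tfrc mRNA and stabilise it, and they hold back the translation of ferritin. Metallothionein 2A (Mt2A) binds zinc and copper, and Slc30a1 moves zinc out of the cell. Both are classical targets of the zinc-sensing factor MTF1, which acts through metal response elements.

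The captures differed in purity and evenness, which bears on every result from bile duct. The bile duct keratin Krt19 averaged 10.71 to 11.5 in the 4 bile duct groups and 3.18 to 3.68 in the 4 hepatocyte groups. The bile acid transporter Slc10a1, which defines hepatocytes, averaged 3.19 to 4.28 in bile duct groups and 9.39 to 9.83 in hepatocyte groups. The mean of a list of 12 hepatocyte genes ran between 4.38 and 9.40 over the 19 bile duct arrays and between 10.74 and 11.12 over the 20 hepatocyte arrays. Albumin, the most abundant hepatocyte product, averaged 10.58 to 11.82 in bile duct groups. The mean of 6 genes of macrophages and Kupffer cells was 6.95 to 7.47 in hepatocyte groups and 6.00 to 6.46 in bile duct groups. In that list Clec4f averaged 8.31 to 9.12 in hepatocyte groups and 2.49 to 4.9 in bile duct groups, while Cd74 was higher in bile duct. The part of such cells in the levels of the members was not tested. In bile duct at 6 h the hepatocyte list averaged 5.92 in ANIT rats and 7.08 in vehicle rats (exact permutation p = 0.349, adjusted over the 8 array measures compared 0.466). At 2 h it averaged 6.98 in ANIT rats and 5.68 in vehicle rats (exact permutation p = 0.0635, adjusted 0.254). Pairs of arrays of a group correlated at 0.979 to 0.993 across probe sets in hepatocytes and at 0.834 to 0.893 in the vehicle bile duct captures at 6 h. ANIT arrays 2 and 4 of bile duct at 2 h had SDs of 1.76 and 1.88 over all probe sets, below the 1.99 to 2.18 of the other bile duct arrays of that time.

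Mt2A lies on chromosome 19 (10837934 to 10838708, rat assembly GRCr8), Slc30a1 on chromosome 13 (106022019 to 106025892), Tfrc on chromosome 11 (81668478 to 81690318) and Hamp on chromosome 1 (95298332 to 95300271), by RefSeq. Slc40a1 lies on chromosome 9 (55525457 to 55633463) and Cp on chromosome 2 (104368336 to 104427119). The 250 bases before the annotated start of Mt2A, Slc30a1, Tfrc and Hamp are shown because Mt2A and Slc30a1 are known metal-responsive genes, Tfrc is the member that rose most after ANIT, and Hamp varied most among hepatocyte captures. The windows, from RefSeq on GRCr8 and printed along the gene's strand, are chr19:10838709-10838958 (minus strand) for Mt2A, chr13:106021769-106022018 (plus strand) for Slc30a1, chr11:81690319-81690568 (minus strand) for Tfrc and chr1:95300272-95300521 (minus strand) for Hamp. Capitals mark matches to the metal response element core, TGCACNC or TGCGCNC, on either strand.
Mt2A: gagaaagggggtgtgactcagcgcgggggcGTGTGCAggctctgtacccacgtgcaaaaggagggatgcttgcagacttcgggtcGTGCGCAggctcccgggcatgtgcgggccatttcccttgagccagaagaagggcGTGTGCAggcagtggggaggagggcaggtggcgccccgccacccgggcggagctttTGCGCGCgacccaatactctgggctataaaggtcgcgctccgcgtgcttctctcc
Slc30a1: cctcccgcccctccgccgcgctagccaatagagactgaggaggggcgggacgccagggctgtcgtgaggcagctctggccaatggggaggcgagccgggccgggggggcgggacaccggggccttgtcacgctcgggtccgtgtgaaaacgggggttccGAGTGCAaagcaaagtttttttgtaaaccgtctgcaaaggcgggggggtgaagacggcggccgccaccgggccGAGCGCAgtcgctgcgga
Tfrc: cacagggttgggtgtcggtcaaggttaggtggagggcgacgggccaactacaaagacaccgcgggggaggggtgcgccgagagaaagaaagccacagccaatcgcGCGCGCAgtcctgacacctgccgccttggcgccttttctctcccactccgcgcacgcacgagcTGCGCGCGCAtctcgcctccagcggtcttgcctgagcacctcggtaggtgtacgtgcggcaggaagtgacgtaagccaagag
Hamp: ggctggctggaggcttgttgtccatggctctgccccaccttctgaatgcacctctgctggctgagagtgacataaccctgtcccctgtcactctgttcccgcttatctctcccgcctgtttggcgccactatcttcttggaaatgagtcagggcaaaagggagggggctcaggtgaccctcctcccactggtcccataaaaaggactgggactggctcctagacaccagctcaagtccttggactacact

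The core was searched as TGCACNC and TGCGCNC on both strands in windows running from 250 bases before to 50 bases after the start. Of 33469 rat windows of that length, 24.2% held at least 1 match and 0.44% held at least 4. Mt2A had 4 matches, Slc30a1 had 2, and Tfrc had 3, of which the last 2 overlap. The windows of Slc40a1, Hamp and Cp had 0. Those of Slc40a1 (55543411 to 55543710, minus strand) and Cp (104368420 to 104368719, plus strand) lie inside the gene positions given above. They therefore do not cover the bases before the outer start of those genes. The core of the antioxidant response element, searched as TGACNNNGC on both strands, was in 12.1% of windows, and Mt2A and Slc30a1 had 1 match each. A match is a run of letters and not evidence of binding.

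**Figure D1:**
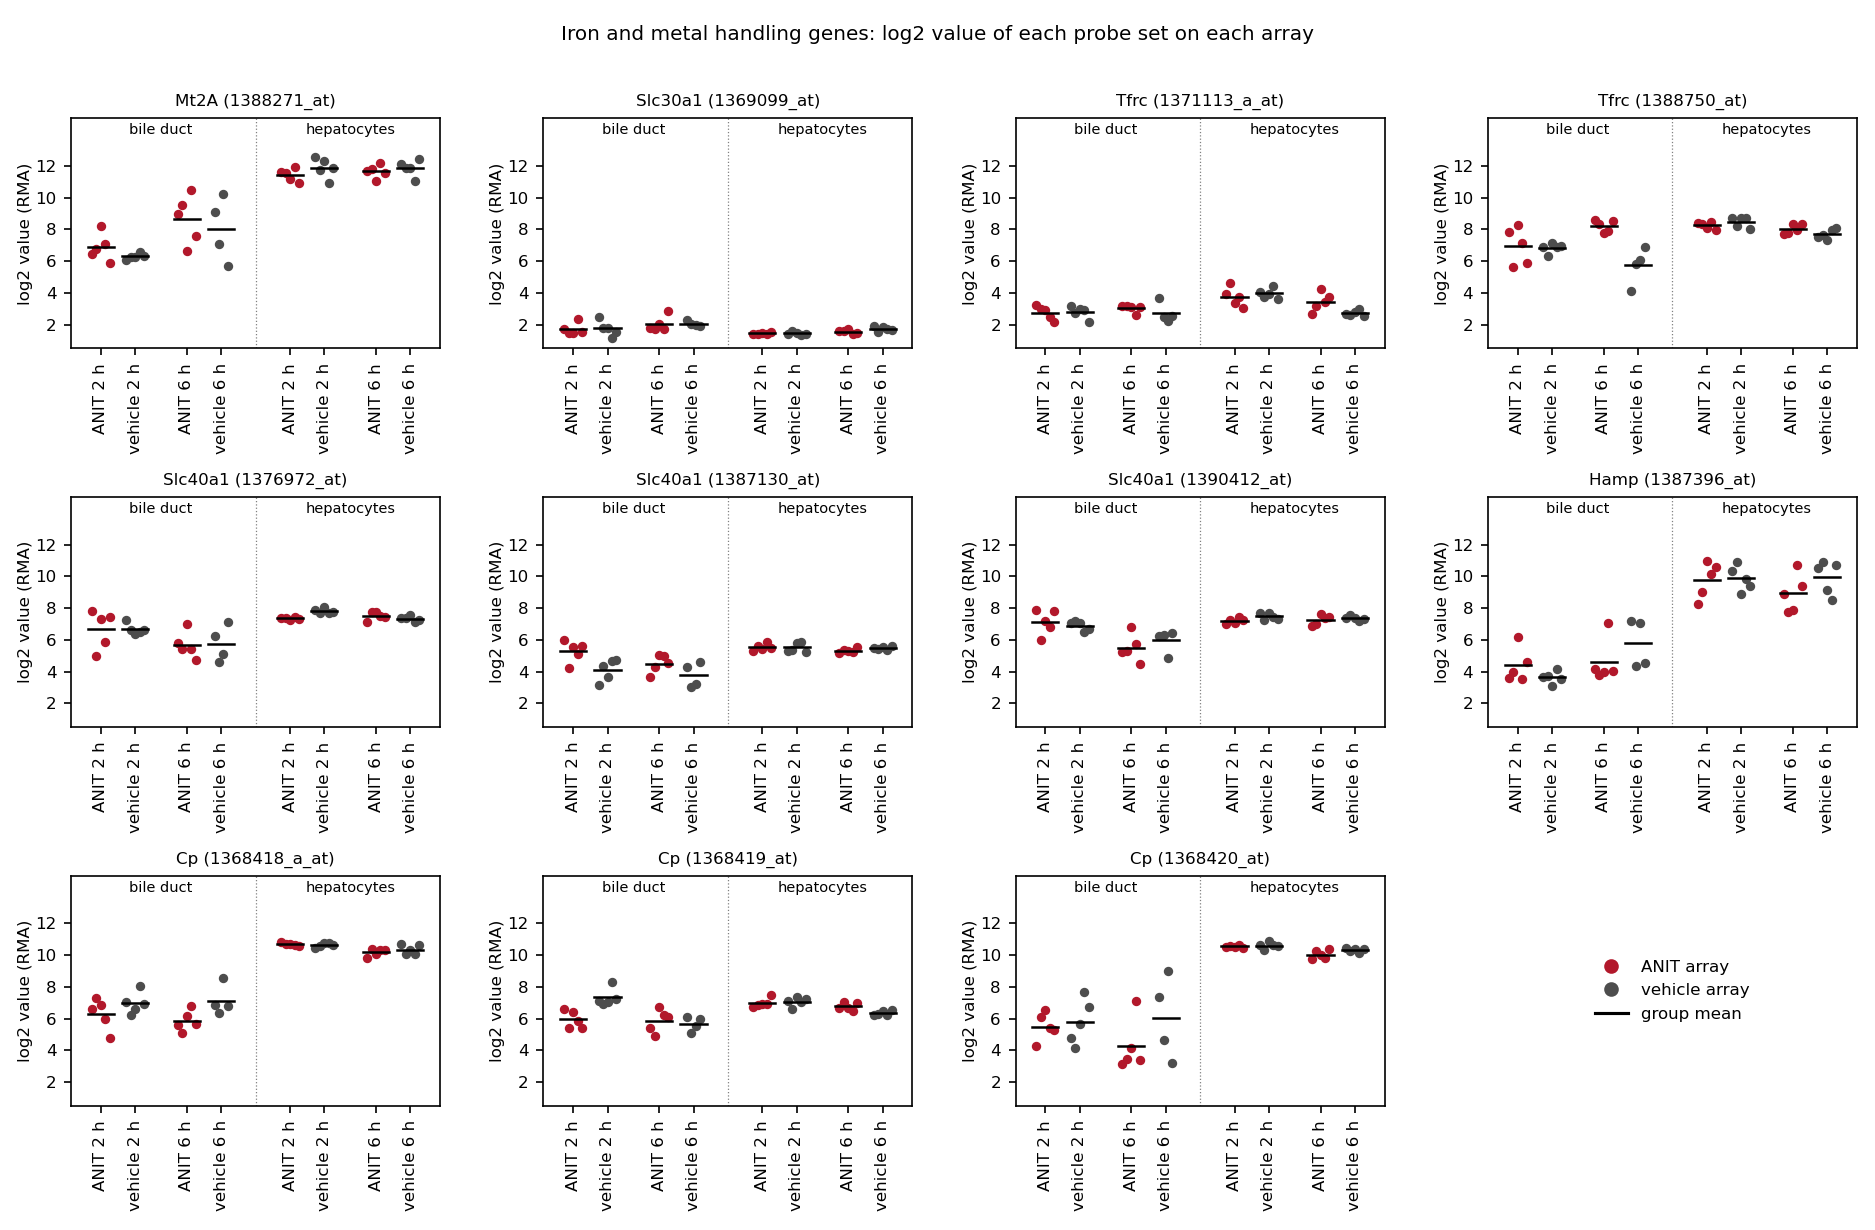
Level of each of the 11 probe sets on every array, as deposited log2 value (vertical axes), in the 8 groups along the horizontal axes; red points are ANIT arrays, grey points vehicle arrays, and bars are group means. Tfrc (1388750_at) in bile duct at 6 h sits between 7.76 and 8.58 in ANIT rats and between 4.13 and 6.87 in vehicle rats, while Hamp and Mt2A separate the regions and scatter within them.

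Of the uptake genes, the transferrin receptor was the member that rose in bile duct after ANIT. At 6 h, Tfrc (1388750_at) had log2 values of 8.58, 8.37, 7.76, 7.87 and 8.56 in ANIT bile duct, against 4.13, 5.82, 6.10 and 6.87 in vehicle bile duct. Every ANIT array stood above every vehicle array, the 1 member probe set of 11 without overlap here, beside 11.3% of all probe sets, and the ANIT arrays lay closer together than the vehicle arrays. Mean levels were 8.23 ± 0.39 in ANIT rats (SD, n = 5) and 5.73 ± 1.16 in vehicle rats (SD, n = 4), a 5.65-fold rise (log2 difference 2.50 ± 0.45 SE, 95% interval 1.54 to 3.46, limma adjusted p = 0.00657). Among all 15866 probe sets tested in this comparison, 6.51% passed an adjusted p of 0.05 and 5.17% passed as higher and 1.34% as lower in ANIT, and Tfrc was the 1 of 11 member probe sets that passed. The authors' deposited table gave a 4.58-fold rise for the same probe set (their p = 1.22e-07). The smallest difference with any single array left out was 1.96, without vehicle array 1, whose value was the lowest.

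At 2 h the same Tfrc probe set had 7.84, 5.61, 8.25, 7.13 and 5.89 in ANIT bile duct, against 6.90, 6.31, 7.16, 6.86 and 6.95 in vehicle bile duct. The ANIT arrays spread on both sides of the vehicle arrays, and the difference was 0.11 (95% interval -0.82 to 1.03, limma adjusted p = 0.916). The ANIT effect in bile duct was larger at 6 h than at 2 h by 2.39 ± 0.66 (limma interaction, adjusted p = 0.0465), in a comparison where 3.57% of probe sets passed, 2.42% as a higher and 1.15% as a lower effect at 6 h. The vehicle arrays of both times enter this difference, and vehicle bile duct itself was at 5.73 at 6 h and at 6.84 at 2 h, which did not pass (-1.11 ± 0.44, limma adjusted p = 0.0962). The interaction passed in 7 of 27 alternative settings, and the 6 h difference between ANIT and vehicle in 18 of 18.

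In hepatocytes Tfrc (1388750_at) lay between 7.33 and 8.75 over the 20 arrays. At 6 h it had 7.69, 7.78, 8.35, 7.94 and 8.32 in ANIT hepatocytes, against 7.54, 7.62, 7.33, 7.98 and 8.06 in vehicle hepatocytes. The groups overlapped, with a difference of 0.31 (95% interval -0.06 to 0.68, limma adjusted p = 0.691). The 6 h effect in bile duct exceeded that in hepatocytes by 2.19 ± 0.49 (95% interval 1.16 to 3.21, limma interaction adjusted p = 0.00936), in a comparison where 7.05% of probe sets passed, 5.21% of all as a higher and 1.84% as a lower effect in bile duct, and Tfrc was the 1 member that passed. By group mean, ANIT bile duct at 6 h (8.23) lay among the hepatocyte groups (8.26 in ANIT and 8.48 in vehicle rats at 2 h, 8.02 in ANIT and 7.71 in vehicle rats at 6 h). Below them came bile duct at 2 h in ANIT and vehicle rats (6.94 and 6.84), which did not differ beyond their spread, and last vehicle bile duct at 6 h (5.73).

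At 6 h, Tfrc (1388750_at) in ANIT bile duct lay between 7.76 and 8.58 at hepatocyte list means between 4.38 and 8.38. The ANIT array at 6 h with the highest list mean (8.38) had a Tfrc value of 7.87, and the one with the lowest list mean (4.38) had 8.56. Vehicle arrays 1 and 3 of that time, with list means of 8.52 and 9.40, had Tfrc at 4.13 and 6.10. Vehicle arrays 2 and 4, with list means of 5.22 and 5.20, had 5.82 and 6.87. With the list mean as a covariate, a setting added after the data were seen, the 6 h difference was 2.24 (limma adjusted p = 0.0108). The bile duct arrays of ANIT rats at 6 h also had a higher mean over 8 bile duct marker genes (8.06 in ANIT rats and 7.52 in vehicle rats, exact permutation p = 0.0159, adjusted 0.0635) and a wider spread of values over all probe sets (SD 2.01 in ANIT rats and 1.81 in vehicle rats, exact permutation p = 0.00794, the smallest 5 against 4 arrays allow, adjusted 0.0635). Of these marker genes Cldn4 differed most at 6 h, at 7.44 in ANIT and 4.47 in vehicle rats. Krt7, Epcam, Spp1 and Onecut1 were also higher in ANIT rats, by less. Krt19 (10.71 in ANIT and 10.92 in vehicle rats), Slc4a2 (6.32 and 6.96) and Aqp1 (5.58 and 5.92) were lower. At 2 h the mean over the marker genes was 8.18 in ANIT and 8.7 in vehicle bile duct, and the SD was 1.98 and 2.09. Vehicle bile duct at 6 h was thus the lowest of the bile duct groups in both measures. The part of these array-wide measures in the Tfrc result was not tested.

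The other Tfrc probe set, 1371113_a_at, did not pass in bile duct. At 6 h it had 3.17, 3.20, 3.13, 2.59 and 3.11 in ANIT bile duct, against 3.69, 2.49, 2.23 and 2.54 in vehicle bile duct. These groups overlapped, and the difference of 0.30 (95% interval -0.40 to 1.00) missed the threshold (limma adjusted p = 0.62). In hepatocytes at 6 h it had 2.64, 3.18, 4.21, 3.45 and 3.75 in ANIT rats, against 2.65, 2.58, 2.77, 2.95 and 2.56 in vehicle rats, a difference of 0.74 ± 0.23 that also missed it (adjusted p = 0.429).

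**Figure D2:**
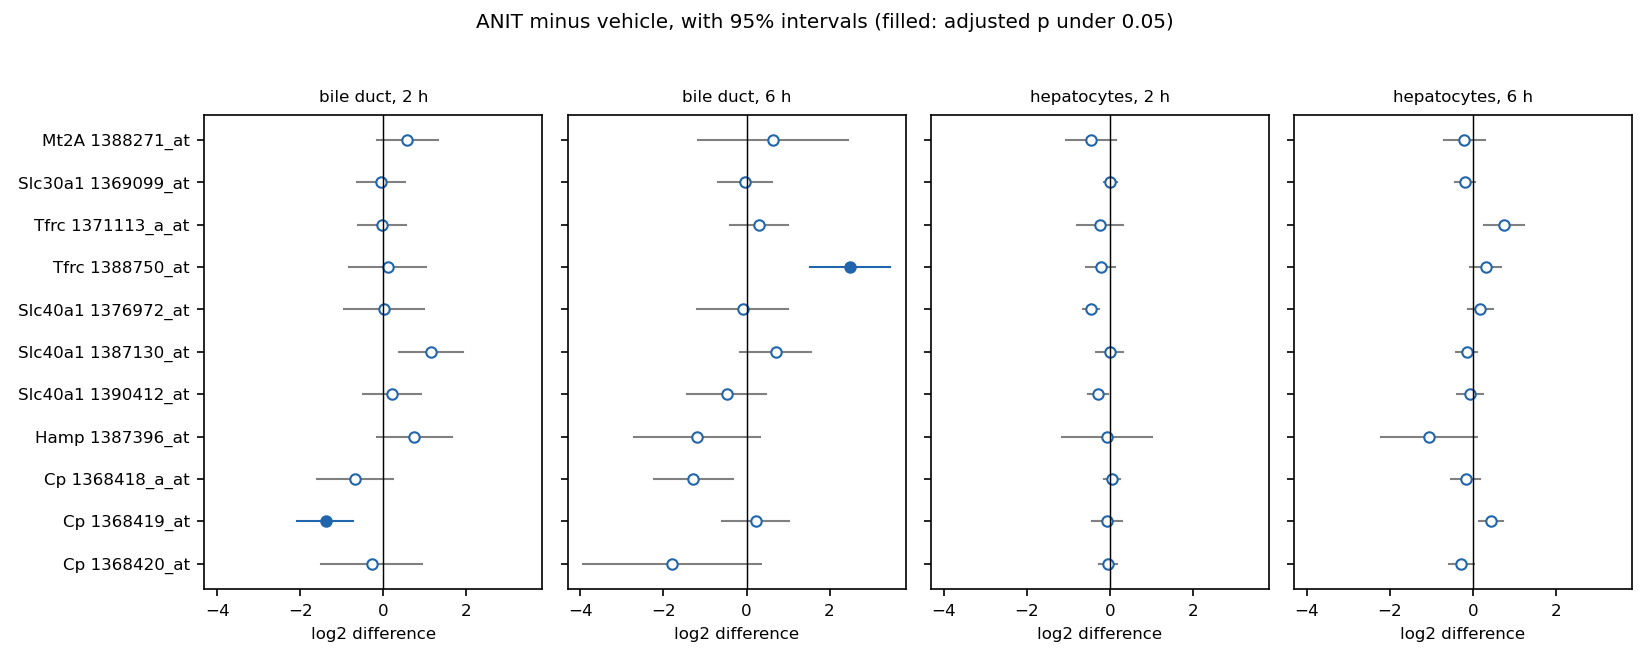
Difference between ANIT and vehicle arrays (horizontal axes, log2, positive where ANIT was higher) for each member probe set (rows), in 4 panels for bile duct and hepatocytes at 2 h and 6 h; lines are 95% intervals, and filled points passed an adjusted p of 0.05. Filled points are Cp (1368419_at) in bile duct at 2 h, at -1.39, and Tfrc (1388750_at) in bile duct at 6 h, at 2.50.

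Of the exporters, ferroportin passed no test of ANIT against vehicle, although single probe sets stood out. Slc40a1 (1387130_at) in bile duct at 2 h had 5.96, 4.21, 5.53, 5.08 and 5.58 in ANIT rats, against 3.16, 4.38, 3.66, 4.68 and 4.71 in vehicle rats. Only the second ANIT array fell inside the vehicle range. The difference was 1.15 ± 0.36 (limma adjusted p = 0.128), while the authors' deposited table gave a 2.40-fold rise (their p = 0.00016, 0.0168 after adjustment over the table). The probe sets 1376972_at and 1390412_at differed by less in the same arrays, by 0.02 and 0.22. The authors' deposited table had both higher in ANIT rats (their p = 0.143 and 0.0408, 0.836 and 0.506 after adjustment). ANIT arrays 2 and 4, whose values spread least, had the lowest ANIT values of both. These were 4.96 and 5.88 for 1376972_at and 5.98 and 6.78 for 1390412_at. Over 20 alternative settings the differences ran from -0.26 to 0.86 and from 0.03 to 0.71, and none passed.

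In hepatocytes at 2 h, Slc40a1 (1376972_at) had 7.38, 7.35, 7.26, 7.44 and 7.34 in ANIT rats, against 7.86, 7.66, 8.06, 7.67 and 7.75 in vehicle rats. The groups did not overlap, as in 1.08% of all probe sets in this comparison, and the difference of -0.45 ± 0.09 had an unadjusted p of 0.000356 in limma, which became 0.39 after adjustment over all probe sets. On these arrays the macrophage and Kupffer list averaged 7.2 in ANIT and 7.47 in vehicle rats (exact permutation p = 0.0873, adjusted 0.698). At 6 h in hepatocytes this probe set had 7.13, 7.73, 7.78, 7.51 and 7.42 in ANIT rats, against 7.39, 7.37, 7.56, 7.10 and 7.25 in vehicle rats, which overlapped. The 3 probe sets in bile duct at 6 h differed by -0.09, 0.70 and -0.48, none past the threshold.

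Slc30a1, the zinc exporter, was at the bottom of the array's range in every group. Its single probe set ran between 1.18 and 2.84 over the bile duct arrays and between 1.36 and 1.91 over the hepatocyte arrays, and its group means ranked between the lowest 0.737% and the lowest 4.06% of all probe sets. A value this low says little about the gene's level. The differences between ANIT and vehicle were -0.05 and -0.03 in bile duct at 2 h and 6 h.

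Metallothionein 2A separated the regions strongly and varied widely within bile duct. In bile duct at 6 h, Mt2A had 8.97, 9.55, 6.64, 10.46 and 7.59 in ANIT rats, against 9.07, 7.06, 10.21 and 5.67 in vehicle rats. Both groups covered nearly the same range, and the difference of 0.64 (95% interval -1.17 to 2.45) missed the threshold (limma adjusted p = 0.693). The 2 vehicle arrays with the highest Mt2A were those with the highest hepatocyte list means, 9.40 and 8.52. The ANIT array with the highest Mt2A, 10.46, also had the highest list mean of its group, 8.38. The ANIT arrays with Mt2A of 8.97 and 9.55 had list means of 4.70 and 6.45, and those with 6.64 and 7.59 had 5.71 and 4.38. With the list mean as a covariate, the 6 h difference was 1.55 (limma adjusted p = 0.104).

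At 2 h, Mt2A had 6.48, 6.76, 8.19, 7.08 and 5.86 in ANIT bile duct, against 6.06, 6.24, 6.27, 6.58 and 6.34 in vehicle bile duct, a difference of 0.58 (95% interval -0.16 to 1.31, limma adjusted p = 0.401). All ANIT arrays but the fifth were above the vehicle mean of 6.30, and the array at 8.19 had the highest list mean of its group, 8.03. In hepatocytes Mt2A had 11.60, 11.57, 11.17, 11.94 and 10.91 in ANIT rats at 2 h, against 12.57, 11.74, 12.32, 10.93 and 11.86 in vehicle rats. It had 11.71, 11.84, 11.07, 12.16 and 11.55 in ANIT rats at 6 h, against 12.11, 11.90, 11.87, 11.07 and 12.41 in vehicle rats. The hepatocyte differences were -0.45 (95% interval -1.05 to 0.15) and -0.21 (95% interval -0.70 to 0.29), and neither passed.

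Mt1, the other main metallothionein of rodent liver, went the other way in mean at 6 h in bile duct. It averaged 8.11 ± 1.30 in ANIT rats (SD, n = 5) and 9.32 ± 1.31 in vehicle rats (SD, n = 4), a difference of -1.21 ± 0.65 that did not pass (limma adjusted p = 0.276). Mt1 and Mt2A transcripts are alike in sequence, so probes of one may also bind the other, and neither probe set is a certain measure of its gene.

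Hepcidin mRNA was the most variable of the members in hepatocytes. Hamp had 8.29, 8.99, 10.96, 10.18 and 10.58 in ANIT hepatocytes at 2 h, against 10.35, 10.92, 8.87, 9.82 and 9.41 in vehicle hepatocytes. It had 8.89, 7.77, 7.85, 10.72 and 9.40 in ANIT hepatocytes at 6 h, against 10.53, 10.93, 9.16, 8.54 and 10.74 in vehicle hepatocytes. Both pairs of groups overlapped, and at 6 h 0 of the 11 member probe sets had groups without overlap in hepatocytes, beside 1.39% of all probe sets. The differences were -0.07 (95% interval -1.15 to 1.01) at 2 h and -1.05 (95% interval -2.21 to 0.10, limma adjusted p = 0.653) at 6 h, and the authors' deposited table gave 2.06-fold lower at 6 h (their p = 0.0674). The spread between arrays of a group was 1.06 for Hamp (pooled SD over the 4 hepatocyte groups), which ranked 22 of 15866 probe sets, against a median of 0.22 over all of them. Mt2A (0.49) and Tfrc 1371113_a_at (0.46) were at the 98.1 and 97.6 percentiles, while the 3 Slc40a1 probe sets (0.18 to 0.21) and the 3 Cp probe sets (0.18 to 0.25) lay near the median.

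In bile duct, Hamp lay below 5 on all but 4 of the 19 arrays. It had 3.57, 4.00, 6.18, 3.53 and 4.63 in ANIT rats at 2 h, against 3.64, 3.70, 3.11, 4.18 and 3.54 in vehicle rats, and 4.13, 3.75, 3.94, 7.08 and 4.06 in ANIT rats at 6 h, against 7.20, 4.36, 7.03 and 4.56 in vehicle rats. The 4 bile duct arrays with Hamp above 6 (6.18, 7.08, 7.20 and 7.03) were the 4 with the highest hepatocyte list means (8.03, 8.38, 8.52 and 9.40), and the next highest Hamp value was 4.63. The 6 h difference of -1.20 (95% interval -2.72 to 0.33, limma adjusted p = 0.335) became -0.39 with the list mean as a covariate.

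**Figure D3:**
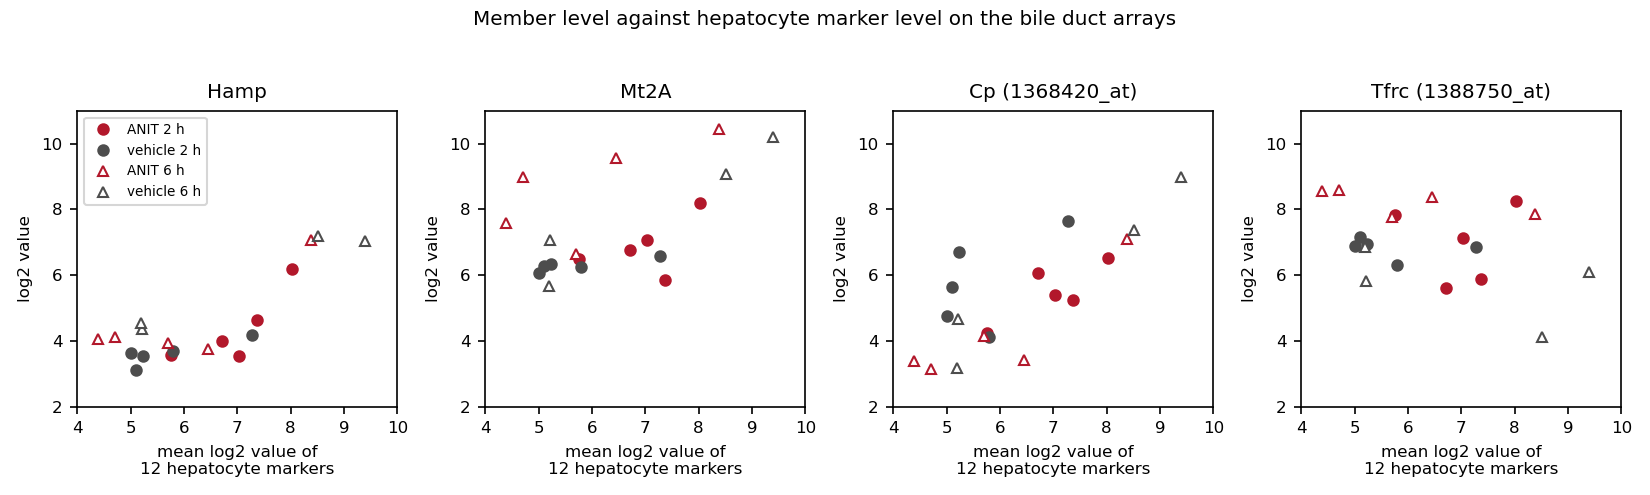
Log2 values of Hamp, Mt2A, Cp (1368420_at) and Tfrc (1388750_at) on the 19 bile duct arrays (vertical axes) against the mean log2 value of 12 hepatocyte genes on the same array (horizontal axes), with ANIT arrays in red, vehicle arrays in grey, circles for 2 h and open triangles for 6 h. The 4 arrays with the highest list means hold the 4 highest Hamp values, whereas Tfrc at 6 h lies between 7.76 and 8.58 in ANIT rats at list means between 4.38 and 8.38.

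Ceruloplasmin had 3 probe sets, which did not move alike. Cp (1368419_at) in bile duct at 2 h had 6.62, 5.41, 6.39, 5.85 and 5.42 in ANIT rats, against 7.13, 6.93, 7.06, 8.30 and 7.24 in vehicle rats. All ANIT arrays were below all vehicle arrays, as in 4.34% of probe sets without overlap in either direction. The mean fell to 5.94 ± 0.55 in ANIT rats, against 7.33 ± 0.55 in vehicle rats (SD, n = 5 each), 2.63-fold lower (log2 difference -1.39 ± 0.32 SE, limma adjusted p = 0.0472). In this comparison 1.12% of all probe sets passed, 0.863% as lower and 0.258% as higher in ANIT, and this probe set was the 1 of 11 members that passed. The authors' deposited table gave 1.99-fold lower (their p = 0.00039). It passed in 6 of 20 alternative settings. With the hepatocyte list mean as a covariate the difference was -1.68 (limma adjusted p = 0.155), and without ANIT arrays 2 and 4 it was -1.19 (adjusted p = 0.143). The ANIT effect in bile duct minus that in hepatocytes was -1.33 ± 0.37 for this probe set (limma interaction adjusted p = 0.0845). At 2 h this test called 0 of the 11 members, 3 of which had an unadjusted p under 0.05, and 1.02% of all probe sets, 0.24% as a higher and 0.782% as a lower effect in bile duct.

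The 2 other Cp probe sets did not pass at 2 h. Cp (1368418_a_at), which the annotation draws from the same source sequence as 1368419_at, had 6.61, 7.27, 6.87, 5.96 and 4.77 in ANIT bile duct, against 7.05, 6.24, 6.60, 8.08 and 6.93 in vehicle bile duct, and Cp (1368420_at) differed by -0.28. At 6 h the probe sets disagreed again. Cp (1368418_a_at) had 5.56, 5.06, 6.15, 6.82 and 5.68 in ANIT bile duct, against 6.86, 6.33, 8.54 and 6.79 in vehicle bile duct, a difference of -1.28 ± 0.45 (limma adjusted p = 0.0999), while 1368419_at differed by 0.23. Cp (1368420_at) had 3.14, 3.42, 4.16, 7.10 and 3.39 in ANIT bile duct at 6 h, against 7.36, 4.67, 8.97 and 3.18 in vehicle bile duct. Its 3 values of 7 or more were on the 3 arrays of that time with the highest hepatocyte list means, and the difference of -1.80 (95% interval -3.94 to 0.34) became -0.59 with the list mean as a covariate.

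In hepatocytes, none of the Cp probe sets passed between ANIT and vehicle. Cp (1368420_at) averaged 10.54 ± 0.08 in ANIT rats and 10.60 ± 0.21 in vehicle rats at 2 h, and 10.03 ± 0.27 in ANIT rats and 10.31 ± 0.11 in vehicle rats at 6 h (SD, n = 5 each). Cp (1368419_at) at 6 h had 6.68, 7.06, 6.68, 6.49 and 6.97 in ANIT hepatocytes, against 6.23, 6.28, 6.47, 6.23 and 6.54 in vehicle hepatocytes, a difference of 0.43 ± 0.14 that did not pass (limma adjusted p = 0.464).

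For hepatocytes as a whole, limma called 0 of 15866 probe sets between ANIT and vehicle at 2 h and 0 at 6 h (0% in each), while 1195 and 1285 had an unadjusted p under 0.05. Of the 11 member probe sets, 2 had an unadjusted p under 0.05 at each time. The authors' p-values, adjusted over their deposited table, called 2 probe sets at 2 h and 3 at 6 h, none of them a member. The median difference over the members was -0.07 at 2 h and -0.15 at 6 h, beside 0.01 and 0.03 over all probe sets. In bile duct the members' medians were 0.02 at 2 h and -0.03 at 6 h, beside 0.03 and -0.05.

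In vehicle rats most members were lower in bile duct than in hepatocytes. In bile duct against hepatocytes, 9 of 11 member probe sets were lower at 2 h and 9 at 6 h and 0 were higher, in comparisons where 52.2% and 53.7% of all probe sets passed. At 2 h 23.5% of all probe sets passed as lower in bile duct and 28.7% as higher, and at 6 h 24.4% as lower and 29.3% as higher. Groups of 9 members at 2 h and 8 at 6 h did not overlap, beside 40.3% and 42% of all probe sets. The members' median difference was -1.41 at 2 h and -1.68 at 6 h, beside 0.16 and 0.23 over all probe sets. Both comparisons use the vehicle arrays that also served as controls above.

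Hamp showed the greatest separation between regions at 2 h among the members, with 3.63 ± 0.38 in bile duct and 9.87 ± 0.80 in hepatocytes (SD, n = 5 each), 75.6-fold lower in bile duct (limma adjusted p = 1.97e-09). Mt2A averaged 6.30 ± 0.19 in bile duct and 11.88 ± 0.63 in hepatocytes at 2 h, 48.0-fold lower (adjusted p = 4.75e-10). Cp was 28.2-fold lower by 1368420_at and 12.6-fold lower by 1368418_a_at, whereas 1368419_at averaged 7.33 in bile duct and 7.06 in hepatocytes and did not pass (limma adjusted p = 0.358). Tfrc was 3.13-fold lower by 1388750_at and 2.27-fold lower by 1371113_a_at, and Slc40a1 was 2.20-, 2.65- and 1.51-fold lower by its 3 probe sets. Slc30a1 did not pass. Another quantile normalisation ended the call of Slc40a1 (1390412_at), at -0.22 (limma adjusted p = 0.363), as did 1 fit over all arrays (adjusted p = 0.115), and under that normalisation Cp (1368419_at) passed as higher in bile duct (0.65, adjusted p = 0.0361). Where a group averages under 4, as Hamp does in bile duct at 2 h, the fold is that of the normalised signal near the low end of its scale and not a bound.

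At 6 h the same genes separated the regions, and whether the folds of the 2 times differ was not tested. Hamp was 18.3-fold lower in bile duct (5.79 ± 1.54, n = 4, and 9.98 ± 1.06 in hepatocytes, n = 5, SD, limma adjusted p = 0.000209), and Mt2A was 14.6-fold lower (8.00 ± 2.03 and 11.87 ± 0.50, adjusted p = 0.000636). At this time 2 of the 4 vehicle bile duct arrays had hepatocyte list means of 9.40 and 8.52, against 5 to 7.28 on the 5 vehicle bile duct arrays at 2 h. Tfrc (1388750_at) was 3.93-fold lower (adjusted p = 0.00217), and its other probe set differed by 0.04. Slc40a1 was 2.98-, 3.20- and 2.59-fold lower, and Cp (1368419_at) was 1.63-fold lower (adjusted p = 0.0256). The other Cp probe sets were lower by more. Their log2 differences were -3.22 for 1368418_a_at (limma adjusted p = 1.86e-05) and -4.27 for 1368420_at (adjusted p = 0.00131), and each passed 17 of 17 alternatives. Another quantile normalisation left 5 of the 9 calls, without those of Tfrc (1388750_at), Cp (1368419_at) and Slc40a1 (1376972_at and 1390412_at). The Cp (1368419_at) call passed in 11 of 17 alternatives and was also lost with the replicate block (adjusted p = 0.0979), with array weights (0.0651) and without vehicle bile duct array 2 (0.0543) or vehicle hepatocyte array 3 (0.0583) or 5 (0.0623).

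**Figure D4:**
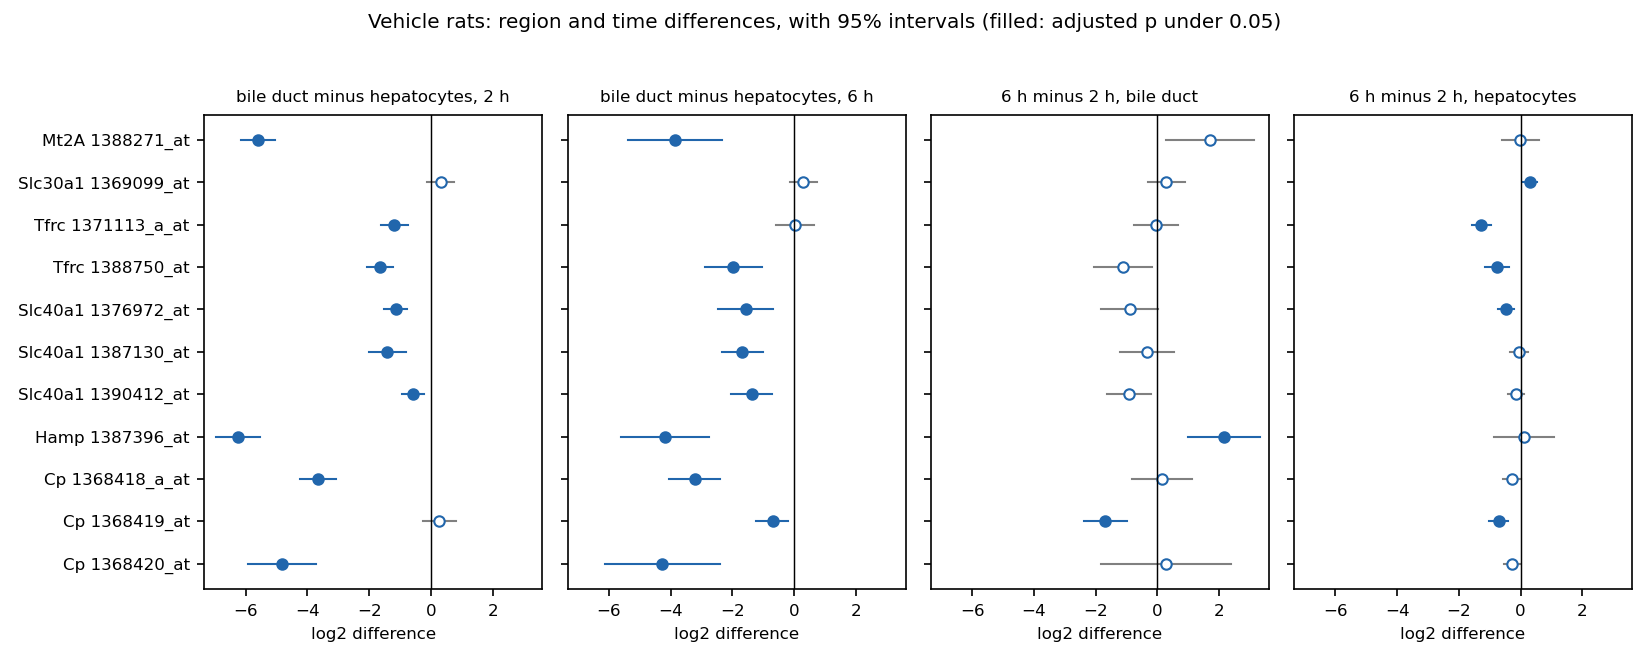
Differences within vehicle rats for each member probe set (rows), as log2 differences (horizontal axes) of bile duct minus hepatocytes at 2 h and 6 h and of 6 h minus 2 h in bile duct and hepatocytes; lines are 95% intervals, and filled points passed an adjusted p of 0.05. The regional panels have 9 filled points each, all below 0, led by Hamp at -6.24 at 2 h, and the panels of time have 2 filled points in bile duct and 5 in hepatocytes.

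Between 6 h and 2 h in vehicle rats, several members differed, and here the time after dosing cannot be told apart from any difference in how the arrays of each time were processed. In bile duct, Hamp was 4.45-fold higher at 6 h (2.15 ± 0.54, limma adjusted p = 0.023) with no overlap, and Cp (1368419_at) was 3.22-fold lower (-1.69 ± 0.33, adjusted p = 0.00931) with no overlap. These were the 2 of 11 members that passed, 1 in each direction, beside 14% of all probe sets, 5.38% as higher and 8.66% as lower. Groups of 3 members, with Slc40a1 (1390412_at) as the third, did not overlap, beside 15.5% of all probe sets. The 2 vehicle arrays at 6 h with the highest hepatocyte list means had Hamp at 7.03 and 7.20 and the other 2 had 4.56 and 4.36. With the list mean as a covariate the difference of Hamp was 1.29 (limma adjusted p = 0.0233). Without vehicle array 3 or 5 of 2 h, or array 3 of 6 h, Hamp missed the threshold (adjusted p = 0.0582, 0.0511 and 0.0573).

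In vehicle hepatocytes, 5 of 11 members passed, 1 as higher and 4 as lower at 6 h, beside 22.2% of all probe sets, 9.44% as higher and 12.8% as lower. Both Tfrc probe sets fell. In 3 of the 11 the groups did not overlap, beside 15.3% of all probe sets. Tfrc (1371113_a_at) was at 2.70 ± 0.16 at 6 h, against 3.97 ± 0.31 at 2 h (SD, n = 5 each), 2.41-fold lower (limma adjusted p = 0.000145), and 1388750_at was 1.71-fold lower (adjusted p = 0.00766). Cp (1368419_at) was 1.63-fold lower (adjusted p = 0.00319) and Slc40a1 (1376972_at) 1.38-fold lower (adjusted p = 0.0131). The member that passed as higher was Slc30a1, at 1.75 at 6 h and 1.44 at 2 h (adjusted p = 0.0483). Both values are at the bottom of the array's range, and it passed in 5 of 16 alternative settings, so little rests on this call. Hamp differed by 0.11 and Mt2A by -0.01.

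Other genes of iron, zinc and copper handling were counted from 9 lists holding 98 genes, of which 71 had a probe set with 1 symbol. In bile duct at 2 h after ANIT, 1 of the 71 rose and 0 fell, beside 0.258% and 0.863% of all probe sets, with a median difference of -0.11 beside 0.03 over all probe sets. The gene that rose was Hmox1, heme oxygenase 1, which opens the heme ring and releases its iron. Hmox1 had 10.45, 5.53, 10.10, 9.80 and 7.16 in ANIT bile duct, against 4.48, 4.65, 4.24, 4.68 and 4.33 in vehicle bile duct. All ANIT arrays were above all vehicle arrays, beside 4.34% of all probe sets without overlap in either direction. The rise in mean was 17.5-fold (log2 difference 4.13 ± 0.73, limma adjusted p = 0.0172), with an SD of 2.16 among the ANIT arrays.

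At 6 h in bile duct, 8 of the 71 genes rose and 1 fell, beside 5.17% and 1.34% of all probe sets, with a median of 0.07 beside -0.05 over all probe sets. Of the 18 zinc and metallothionein genes 3 rose, of the 14 hepcidin regulators 2, and of the 3 ferritin and storage, 8 heme and 5 mitochondrial iron genes 1 each. Of the 10 copper genes 1 fell. Of the 9 uptake and plasma carrier genes, 3 genes of the iron regulatory protein system and 1 gene of iron export, 0 passed. Smad5, a mediator of bone morphogenetic protein signals to hepcidin, rose 3.43-fold (5.46 in ANIT and 3.68 in vehicle bile duct, limma adjusted p = 0.00588). Slc39a10 and Slc30a5, both zinc transporters, rose 3.57-fold (adjusted p = 0.00793) and 2.92-fold (adjusted p = 0.0101). Hmox1 had 6.97, 6.83, 4.97, 6.95 and 8.69 in ANIT bile duct, against 4.12, 4.76, 4.22 and 4.41 in vehicle bile duct, 5.68-fold higher (adjusted p = 0.0126). The vehicle arrays at 6 h are the baseline of these counts. Of the genes that rose, Pcbp1 averaged 8.14 in ANIT and 6.65 in vehicle rats, but 8.5 in vehicle rats at 2 h. Nfs1 averaged 5.19, 3.84 and 6.03 in the same groups. For the other genes that rose, the ANIT mean at 6 h stood above the vehicle mean at 2 h.

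In hepatocytes 0 of the 71 genes passed at 2 h or at 6 h in limma, where 6 and 5 had an unadjusted p under 0.05. Hmox1 there lay between 6.36 and 8.30 in ANIT hepatocytes at 2 h and between 6.44 and 8.55 in vehicle hepatocytes. The ANIT effect on Hmox1 was larger in bile duct than in hepatocytes by 4.52 at 2 h (limma interaction adjusted p = 0.0234).

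The regional pattern of the lists in vehicle rats was mostly lower in bile duct, with 40 of 71 genes lower and 10 higher at 2 h, and 42 lower and 7 higher at 6 h. Of all probe sets 23.5% were lower and 28.7% higher at 2 h, and 24.4% lower and 29.3% higher at 6 h. At both times all 8 heme synthesis and breakdown genes were lower in bile duct, and of the 5 mitochondrial iron genes 4 were lower at 2 h and 5 at 6 h. Of the 10 copper genes 7 were lower at 2 h and 8 at 6 h, and of the 18 zinc genes 9 and 8. Slc39a14, a carrier that brings free iron and zinc into hepatocytes, averaged 4.95 in bile duct and 9.02 in hepatocytes at 2 h, 16.8-fold lower (limma adjusted p = 3.07e-10). Slc46a1, a heme and folate carrier, averaged 3.3 in bile duct and 7.51 in hepatocytes at 2 h. Its fold, 18.5-fold lower, is that of a signal near the low end of the scale in bile duct. Slc31a1, the copper importer, was 13.5-fold lower, and Mt1 26.4-fold lower. Lcn2, lipocalin 2, which binds iron-bearing siderophores, went the other way, at 11.06 ± 0.36 in bile duct (SD, n = 4) and 2.85 ± 0.86 in hepatocytes (SD, n = 5) at 6 h (adjusted p = 1.33e-08), with no fold given because the hepatocyte value is near the low end of the scale. At 6 h the sulfur donor of iron-sulfur cluster assembly, Nfs1, was 14.4-fold lower in bile duct (3.84 in bile duct and 7.68 in hepatocytes), the copper chaperone Ccs 9.0-fold lower (3.98 and 7.15) and the heme-hemopexin receptor Lrp1 6.49-fold lower (6.23 and 8.93).

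Between 6 h and 2 h in vehicle rats, 5 of the 71 listed genes rose and 7 fell in bile duct, and 8 rose and 17 fell in hepatocytes. Of all probe sets 5.38% rose and 8.66% fell in bile duct, and 9.44% rose and 12.8% fell in hepatocytes. The iron chaperones Pcbp1 and Pcbp2 were 3.61-fold and 2.98-fold lower in bile duct at 6 h than at 2 h (limma adjusted p = 0.00908 and 0.00576), Nfs1 was 4.57-fold lower and the zinc transporter Slc30a3 3.14-fold higher. In hepatocytes at 6 h, Smad4, which carries bone morphogenetic protein signals, was 1.61-fold higher, and the heme synthesis enzyme Ppox and the zinc importers Slc39a3 and Slc39a4 were 1.52-, 1.86- and 1.76-fold lower.

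Over the 8 group means, each centred on its own average, the probe sets nearest to Tfrc (1388750_at) were those of Fam91a1 and Kcmf1, at root mean square differences of 0.208 and 0.225. In bile duct at 6 h, Fam91a1 averaged 5.15 in ANIT rats and 2.82 in vehicle rats, and Kcmf1 7.46 in ANIT rats and 5.04 in vehicle rats. At 2 h Fam91a1 averaged 4.44 in ANIT and 4.14 in vehicle bile duct, and Kcmf1 6.48 and 6.1. Both, like Tfrc, were thus lower in vehicle bile duct at 6 h than at 2 h. The nearest to Hamp were Slco1b2 (0.282) and Clec4f (0.29), to Mt2A Rcl1 (0.357) and Lcat (0.431), to Slc40a1 (1376972_at) Iffo1 (0.163) and Rgs18 (0.164), and to Cp (1368418_a_at) Tst (0.165) and Cyp4v3 (0.201). These are descriptions over 8 groups that share the split between bile duct and hepatocytes.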

How the data were processed

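The deposited values were log2 expression values per probe set of 39 Affymetrix rat arrays, normalised by the authors with RMA, per the submitters' processing notes. The authors also deposited log10 ratios and p-values of ANIT against vehicle from Rosetta Resolver, per the labels; how that software weighted arrays is not given in the sources used here. Precision is set by the 4 or 5 arrays of a group.

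Of 15923 probe sets, 57 controls were left out and 15866 tested; 12783 had 1 gene symbol, 312 had several and 2771 were unnamed. Groups were compared with limma 3.58.1 (R 4.3.3), fitted on the groups of each comparison with empirical Bayes moderation, with no filter on low values and Benjamini-Hochberg adjustment over all probe sets at a threshold of 0.05. Array-wide measures were compared with two-sided exact permutation tests. P-values measure the spread between arrays. Deposited log10 ratios served only as the authors' own values.

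Members and lists were chosen with earlier results of these data known. The text names every member probe set, and for each comparison up to 4 listed pathway genes with the smallest p among those that passed. Alternatives covered normalisation, dim probe sets (mean under 4), moderation, array weights, 1 fit over all arrays, the replicate number as a block and single arrays left out. The analysis was tested on simulated data. Equal replicate numbers were not taken as pairs: in no comparison did every same-numbered pair of deviations correlate over 0.1 (range -0.20 to 0.35; at most 3 of 5 pairs, in hepatocytes at 2 h). Positions and sequences came from RefSeq on GRCr8; 6 of the 7 genes had an upstream window.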

Additional observations from a re-analysis of the deposited data

Results flagged for a closer look

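Within groups of 4 or 5 arrays, 7 of 88 group and probe set combinations had 1 array far from the others by Dixon's test, where chance gives about 1 in 20. Hamp stood at 7.08 on the fourth ANIT bile duct array at 6 h, with the others between 3.75 and 4.13. On the same array Cp (1368420_at) stood at 7.10, with the others between 3.14 and 4.16, and Tfrc (1371113_a_at) at 2.59, with the others between 3.11 and 3.20; the hepatocyte list mean of that array was 8.38. Cp (1368419_at) stood at 8.30 on the fourth vehicle bile duct array at 2 h (others 6.93 to 7.24) and at 7.51 on the fifth ANIT hepatocyte array at 2 h (others 6.71 to 6.94). Slc40a1 (1390412_at) stood at 4.87 on the third vehicle bile duct array at 6 h (others 6.26 to 6.44), and Slc40a1 (1376972_at) at 7.26 on the first vehicle bile duct array at 2 h (others 6.37 to 6.62).

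The ANIT effect on Tfrc (1388750_at) differed between groups in both directions tested. It was larger in bile duct than in hepatocytes at 6 h by 2.19 and larger in bile duct at 6 h than at 2 h by 2.39, both past the threshold in limma's interaction test. The first passed in 26 of 27 alternative settings and the second in 7 of 27. For the other Tfrc probe set, 1371113_a_at, these differences were -0.44 and 0.33 (limma interaction adjusted p = 0.539 and 0.638).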

How the results depend on the processing

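No called result changed sign under any alternative, and of 2747 recomputed values 2663 kept their side of the threshold. The rise of Tfrc (1388750_at) in bile duct at 6 h passed all 18 alternatives (1.96 to 2.88, limma adjusted p 6.39e-06 to 0.0339), and its excess over hepatocytes 26 of 27. Counts of member probe sets that passed moved more. ANIT in bile duct at 2 h had 1; it had 0 with another quantile normalisation, array medians, the replicate block, the hepatocyte covariate or without ANIT arrays 2 and 4, whose values spread least, 2 with array weights, 1 fit over all arrays or the authors' p-values, and 0 to 1 with single arrays left out. At 6 h the fit over all arrays had 3, not 1. Bile duct against hepatocytes at 6 h had 5 with quantile normalisation, not 9. Vehicle bile duct at 6 h against 2 h had 2; it had 1 with quantile normalisation or the replicate block, 5 with the fit over all arrays, and 1 to 5 with single arrays left out. Vehicle hepatocytes had 5; 3 without dim probe sets, 1 in the fit over all arrays, 4 with quantile normalisation or the replicate block, each without Slc30a1, and 4 to 6 with single arrays left out. The difference of ANIT effects between regions had 0 to 1 at 2 h with single arrays left out, and 0 at 6 h with quantile normalisation (main 1). That between times in bile duct had 1; 0 with quantile normalisation, array weights, the replicate block or the hepatocyte covariate, 2 in the fit over all arrays, and 0 to 2 with single arrays left out. The causes were not tested, except that the fit over all arrays uses bile duct's wider spread for hepatocytes too. The hepatocyte covariate and the removal of those 2 arrays were chosen after seeing the data. Replicate numbers only name arrays here, and Cp (1368419_at) in bile duct at 2 h was among the calls lost with them as a block.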
